A study of Mus musculus with 95 samples.

Results

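The 7 genes Arhgef5, Atf3, Bicd1, Bin2, Cpn1, Rab17 and Tspan8 were listed because their RNA was higher than in wild-type in every one of 6 mouse embryonic stem cell lines that lack different Pcgf genes. The rule asked for a rise in all 6 knockout groups in each fit that leaves out 1 library. Of 15464 genes tested, 49 (0.317%) were raised in all 6 knockouts with every library in the fit, at an adjusted p under 0.05 in each comparison, and all 7 listed genes were among them. When each of the 14 libraries was left out in turn, 6 genes stayed raised in all 6 knockouts in every fit, and 3 of these, Bicd1, Bin2 and Cpn1, were on the list. Rab17, Tspan8 and Atf3 each missed the rule in 1 of the 14 fits, and Arhgef5 missed it in 2. Sfmbt2 and Pramef8 also met the rule and were not on the list. The 7 genes are therefore described here as the list gives them, and 4 of them lie just outside the strict rule. The nearest unlisted genes outside it were Fam174a, which missed in 1 fit with a mean log2 fold change of 3.31 over the knockouts, and Elovl2, which missed in 2 with a mean of 2.77. Because these comparisons chose the genes, the rise over wild-type is given below as a description without a test.

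The cells were E14, an established line of mouse embryonic stem cells, grown with serum and leukemia inhibitory factor while GSK3β and MEK were inhibited. RNA was read as poly-A RNA-seq in 14 libraries, 2 each of wild-type cells and of the genotypes Pcgf1-/-, Pcgf2/4-/-, Pcgf3/5-/-, Pcgf6-/-, Pcgf1/2/4-/- and Pcgf3/5/6-/-, where Pcgf4 is also called Bmi1. Every knockout was made with Cas9 plasmids, puromycin selection and isolation of clones, and each count column carries the name of 1 clone or line, so gene loss and clonal origin cannot be told apart. The same holds for anything else that separates the wild-type libraries from all edited lines, since all 6 comparisons share the wild-type libraries. Deposited peak lists from chromatin immunoprecipitation, 80 in all, came from these lines and from further ones. The further ones were labelled Ezh1/2-/-, Ring1a-/-_Ring1bfl, Ring1a/b-/-, shCtr, shMGA, shMGAdHLH, shE2F6, shE2F6-MGAdHLH, shUsf1 and shUsf2. Not every antibody was used in every line.

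Library totals ran from 2147968 to 7848161 counts. The counts of both wild-type libraries differed by less than the sampling noise (chi-square per degree of freedom 0.958), whereas the knockout pairs gave 1.18 to 19.5. The wild-type libraries were therefore counted as 1 sample in the levels and ratios, with their counts pooled, whereas the fitted log2 fold changes, SEs and p-values below use them as 2 libraries. Fitting them as 1 library left all 7 genes raised in all 6 knockouts, while the number of genes raised in all 6 went from 49 to 33. Nothing in the labels says that the libraries of a group came from separate cultures, so p-values measure the spread between these libraries, which may be technical. The deleted genes checked the labels only in part. Pcgf6 had 0 counts in both Pcgf6-/- libraries. Pcgf1 fell from 61.0 and 66.1 CPM (counts scaled to a common library size) in wild-type to 3.20 and 4.81 in Pcgf1-/-. In Pcgf1/2/4-/- Pcgf1 was at 0.534 and 0.903, while Pcgf2 was at 57.1 and 56.9 and Bmi1 at 13.9 and 19.9. Pcgf6 stood at 37.2 and 42.0 CPM in the libraries labelled Pcgf3/5/6-/- against 34.3 and 36.2 in wild-type, and Pcgf2 at 41.0 and 54.8 in those labelled Pcgf2/4-/- against 42.9 and 48.9, so the RNA of those targets does not check these labels. The summed level of 6 pluripotent stem cell markers was 1159 to 1170 CPM in wild-type and 971 to 2123 CPM over the knockout libraries. In bulk RNA, more cells that express a gene and more RNA per cell cannot be told apart.

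PCGF proteins are the ring finger partners of RING1A and RING1B in Polycomb repressive complex 1, which places ubiquitin on histone H2A (the mark H2AK119ub1). Each complex holds a single PCGF protein, and the choice of PCGF decides the other subunits. PCGF2 and PCGF4 form the canonical complexes that recognise H3K27me3, the mark made by Polycomb repressive complex 2 with its subunit SUZ12. In embryonic stem cells these complexes sit mostly on promoters rich in CpG dinucleotides and keep developmental genes low. H3K4me3 marks the starts of active or poised genes. Among the listed genes, Atf3 is a stress-induced bZIP transcription factor. Arhgef5 is a guanine nucleotide exchange factor for small GTPases, Bin2 is a BAR domain protein that binds curved membranes, and Bicd1 links cargo to the dynein motor. Rab17 is a small GTPase of membrane traffic in polarised epithelial cells, and Tspan8 is a tetraspanin best known from epithelia and their tumours. Cpn1 encodes the catalytic subunit of carboxypeptidase N, a plasma enzyme made in the liver that removes basic residues from peptide ends.

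The genes lay apart in the genome (build NCBIM37, which is mm9, with GENCODE M1 gene models). Arhgef5 was at chr6:43215643-43239319 on the plus strand, Atf3 at chr1:192994175-193007219 on the minus strand and Bicd1 at chr6:149357506-149511851 on the plus strand. Bin2 was at chr15:100475214-100499933, Cpn1 at chr19:44030797-44061046 and Rab17 at chr1:92854710-92866238, all on the minus strand. Tspan8 was at chr10:115254340-115286949 on the plus strand. Bicd1 overlaps the pseudogene Gm15785 on the opposite strand. The library protocol described in the labels, after SMART-seq2, does not mark strand, so reads of that pair cannot be told apart.

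The promoters differed widely in CpG content, and sequences are shown here for 4 of the genes. Any link between CpG content and the Polycomb peaks described below was not tested. Promoter sequences came from RefSeq (GRCm38.p6), which held 6 of the 7 genes, and each was found at exactly 1 place in NCBIM37. The 250 bases before the start held 24 CpG dinucleotides in Atf3 and 20 in Arhgef5, above 89.3% and 83.7% of 32851 promoters in the table, whose median was 6. Bicd1 had 8, Cpn1 7, Tspan8 4 and Rab17 3. Cpn1, whose sequence is not printed, had a wild-type H3K27me3 peak, and Bicd1, with more CpG, had none. Bin2 had no RefSeq promoter to count. The sequences below run 5′ to 3′ on the strand of the gene, with every CpG in capitals, at chr6:43215393-43215642 (+) for Arhgef5, chr1:193007220-193007462 (-) for Atf3, chr6:149357256-149357505 (+) for Bicd1 and chr10:115254090-115254339 (+) for Tspan8, all in NCBIM37. For Atf3 the 7 bases that fall inside the annotated gene are left off.

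Arhgef5: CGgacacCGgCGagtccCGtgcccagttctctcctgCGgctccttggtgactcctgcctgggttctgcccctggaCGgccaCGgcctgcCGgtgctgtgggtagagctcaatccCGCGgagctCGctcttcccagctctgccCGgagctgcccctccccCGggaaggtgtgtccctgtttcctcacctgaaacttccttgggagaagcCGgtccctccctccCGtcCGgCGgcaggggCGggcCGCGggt

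Atf3: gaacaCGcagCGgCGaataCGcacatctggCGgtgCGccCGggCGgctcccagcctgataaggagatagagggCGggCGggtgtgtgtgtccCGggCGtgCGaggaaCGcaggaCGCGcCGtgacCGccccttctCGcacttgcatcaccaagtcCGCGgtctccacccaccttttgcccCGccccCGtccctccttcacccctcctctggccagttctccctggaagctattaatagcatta

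Bicd1: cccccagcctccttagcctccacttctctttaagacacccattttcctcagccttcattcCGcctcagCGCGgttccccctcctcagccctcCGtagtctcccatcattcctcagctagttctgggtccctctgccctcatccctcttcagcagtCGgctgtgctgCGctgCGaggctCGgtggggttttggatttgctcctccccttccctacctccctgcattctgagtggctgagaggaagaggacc

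Tspan8: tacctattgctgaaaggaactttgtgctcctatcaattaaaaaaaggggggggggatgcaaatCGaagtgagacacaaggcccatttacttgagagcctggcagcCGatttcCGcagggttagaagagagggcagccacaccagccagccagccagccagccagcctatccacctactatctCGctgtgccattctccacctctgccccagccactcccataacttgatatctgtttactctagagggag

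The RefSeq start of Rab17 lies inside its GENCODE gene, so its window is a downstream start and is not printed. None of the 6 windows of 250 bases held, on either strand, the E-box CACGTG bound by USF1 and MGA (in 6.02% of all promoters), the cAMP response element TGACGTCA (1.55%), the E2F motif GCGGGAAA (0.895%), the CCAAT box CCAAT (33.8%) or the TATA box TATAAA (12.4%). This says only that those letters are not in these windows.

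In wild-type cells 6 of the 7 genes were low. Per kilobase of exon the wild-type mean was 26.9 CPM for Bin2, 2.57 for Cpn1, 0.714 for Atf3, 0.293 for Bicd1 and 0.0130 for Arhgef5. Rab17 and Tspan8 had no count among the 13795502 counts of both wild-type libraries. The 3 counts that a count of 0 allows correspond to 0.212 CPM over the pooled wild-type libraries, a limit that covers counting error only. Bin2 stood above 56.1% of all tested genes in wild-type CPM, and the others between the lowest ranks and 35.1% (Cpn1). For each of the 7 genes all 12 knockout libraries lay above both wild-type libraries, which held for 181 of the 15464 genes (1.17%). The rule fixes this count for the listed genes, and nothing is read from it.

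**Figure D1:**
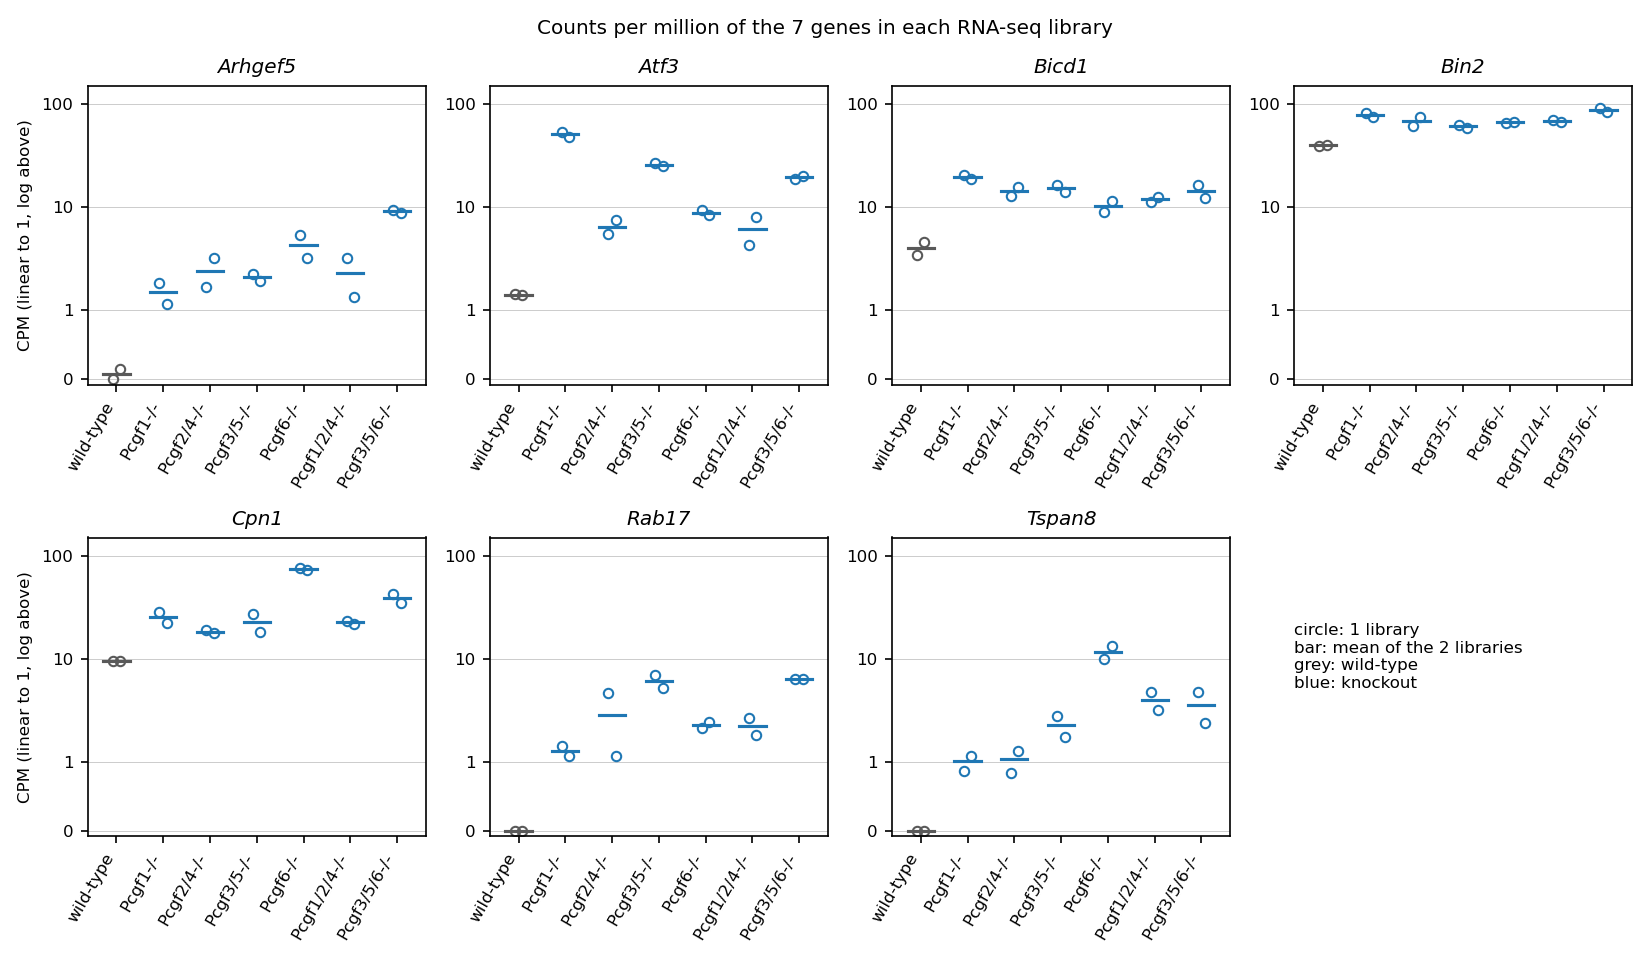
Level in CPM (linear from 0 to 1 and logarithmic above) of each gene in each of the 14 libraries, as circles, with a bar at the mean of the 2 libraries of a group; wild-type is grey and knockouts are blue. Every blue circle lies above both grey ones, and the line with the highest level differs from gene to gene.

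Atf3 had its highest level in Pcgf1-/-. Its wild-type libraries held 1.43 and 1.41 CPM. It reached 54.0 and 48.5 CPM in Pcgf1-/-, 26.7 and 24.9 in Pcgf3/5-/-, and 18.6 and 20.3 in Pcgf3/5/6-/-. In Pcgf6-/- it was at 9.34 and 8.43 CPM, in Pcgf2/4-/- at 5.45 and 7.54, and in Pcgf1/2/4-/- at 4.27 and 8.13. Apart from the last pair of groups, which overlap, neighbours in this order have separate libraries. The log2 fold change over wild-type was 5.16 ± 0.24 (SE, n = 2 knockout libraries) in Pcgf1-/- and 2.14 ± 0.39 in Pcgf1/2/4-/-.

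Arhgef5 was highest in the lines labelled as lacking Pcgf6. It had 0 and 1 counts in wild-type, or 0 and 0.141 CPM. Its levels were 9.48 and 8.79 CPM in Pcgf3/5/6-/- and 5.35 and 3.22 in Pcgf6-/-. They were 1.68 and 3.19 in Pcgf2/4-/-, 3.20 and 1.35 in Pcgf1/2/4-/-, 2.27 and 1.92 in Pcgf3/5-/-, and 1.86 and 1.14 in Pcgf1-/-. The groups from Pcgf2/4-/- to Pcgf3/5-/- overlap their neighbours, and the steps above and below them are separate. The pooled ratio to wild-type was 129 in Pcgf3/5/6-/- (95% exact binomial interval 22.2 to 5189) and 23.0 in Pcgf1-/- (3.71 to 948). These intervals cover counting error only and are wide because the wild-type value is a single read.

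Bin2 had the smallest relative rise and the highest level. Its libraries were at 39.5 and 39.9 CPM in wild-type, 92.6 and 84.2 in Pcgf3/5/6-/-, and 81.5 and 75.2 in Pcgf1-/-. They were at 70.5 and 67.3 in Pcgf1/2/4-/-, 61.6 and 74.2 in Pcgf2/4-/-, 66.4 and 67.9 in Pcgf6-/-, and 63.2 and 58.9 in Pcgf3/5-/-. Pcgf2/4-/- overlaps the groups on both sides of it, and the rest are separate from their neighbours. The log2 fold change over wild-type ran from 0.62 ± 0.11 (SE) in Pcgf3/5-/- to 1.15 ± 0.11 in Pcgf3/5/6-/-, with n = 2 libraries in each.

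Bicd1 had its highest level in Pcgf1-/-. Wild-type libraries held 3.42 and 4.64 CPM. Pcgf1-/- was at 20.6 and 18.7, Pcgf3/5-/- at 16.6 and 14.2, and Pcgf3/5/6-/- at 16.4 and 12.2. Pcgf2/4-/- was at 13.0 and 15.6, Pcgf1/2/4-/- at 11.2 and 12.6, and Pcgf6-/- at 9.09 and 11.5. Pcgf1-/- lies apart from the next group, as does Pcgf2/4-/- from Pcgf1/2/4-/-, and the other neighbours overlap. The log2 fold change ran from 1.34 ± 0.24 (SE, n = 2) in Pcgf6-/- to 2.29 ± 0.23 in Pcgf1-/-.

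Cpn1 and Tspan8 both peaked in Pcgf6-/-. Cpn1 was at 9.42 and 9.56 CPM in wild-type, 76.2 and 72.2 in Pcgf6-/-, and 42.7 and 34.5 in Pcgf3/5/6-/-. The remaining knockouts lay lower, with 28.5 and 22.2 CPM in Pcgf1-/-, 27.4 and 18.2 in Pcgf3/5-/-, 23.5 and 21.7 in Pcgf1/2/4-/-, and 18.8 and 17.6 in Pcgf2/4-/-. Among these, Pcgf3/5-/- overlaps both neighbours, while Pcgf6-/- and Pcgf3/5/6-/- stand apart from each other and from the rest. Tspan8 was at 0 in both wild-type libraries and at 9.96 and 13.2 CPM in Pcgf6-/-, which is at least 53.7-fold above the wild-type floor of 3 counts over the pair. It was at 4.81 and 3.16 CPM in Pcgf1/2/4-/-, 4.74 and 2.37 in Pcgf3/5/6-/-, 2.81 and 1.73 in Pcgf3/5-/-, 0.838 and 1.28 in Pcgf2/4-/-, and 0.874 and 1.14 in Pcgf1-/-. The lowest of these groups, Pcgf1-/-, was at least 4.52-fold above the same floor. Pcgf6-/- stands apart from the next group, the 3 groups after it overlap, and the last 2 groups overlap each other. The Tspan8 libraries of Pcgf1-/- and Pcgf2/4-/- held only 2 to 10 reads each.

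Rab17 was highest in the lines labelled as lacking Pcgf3 and Pcgf5. It was at 0 in both wild-type libraries, at 6.32 and 6.42 CPM in Pcgf3/5/6-/-, and at 6.95 and 5.18 in Pcgf3/5-/-. It was at 4.61 and 1.15 CPM in Pcgf2/4-/-, 2.12 and 2.45 in Pcgf6-/-, 2.67 and 1.81 in Pcgf1/2/4-/-, and 1.42 and 1.14 in Pcgf1-/-. The top 2 groups overlap, and so do Pcgf2/4-/-, Pcgf6-/- and Pcgf1/2/4-/- with their neighbours in turn. Against the floor the level was at least 30.0-fold higher in Pcgf3/5/6-/- and at least 6.26-fold higher in Pcgf1-/-. In the authors' deposited table all 42 values for the 7 genes were positive, with log2 fold changes from 0.63 to 8.82 and a largest adjusted p of 0.014. For Pcgf6-/- that table and the count table carry different clone names, so its values there may come from another clone.

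Comparisons between knockout lines were not used by the rule, and they were tested in the same edgeR quasi-likelihood fit with Benjamini-Hochberg adjustment over all genes. Genes near 0 in some groups passed the filter on low counts through the groups where they are higher, so their tests are not free of that choice. All 7 genes differed among the 6 knockout groups, as did 85.9% of tested genes. Arhgef5 lost this call with loess offsets, and Bicd1 lost it without Pcgf1-/- replicate 1 and without Pcgf6-/- replicate 1. Each triple knockout was then set against the 2 lines whose deleted genes it includes. In these comparisons the further loss and clonal origin cannot be told apart. Pcgf1/2/4-/- differed from Pcgf1-/- in 3 of the 7 genes, against 41.6% of all genes. Atf3 was lower by far, with a log2 fold change of -3.02 ± 0.24 (SE, edgeR adjusted p = 8.16e-07). Bicd1 was lower too, at -0.72 ± 0.24 (edgeR adjusted p = 0.0292), and Tspan8 was higher, at 2.00 ± 0.58 (edgeR adjusted p = 0.0149). The Bicd1 and Tspan8 calls were both lost without Pcgf1-/- replicate 1 and without Pcgf1/2/4-/- replicate 1, and Bicd1 was also lost without Pcgf1/2/4-/- replicate 2, with loess offsets and with DESeq2. With only the groups compared, the filter left 3 of the 7 genes untested here and the Tspan8 call was lost. Tspan8 held 8 and 5 reads in Pcgf1-/- and 9 and 7 in Pcgf1/2/4-/-. The Atf3 call held in each of these fits. The differences for the other four genes lay between -0.20 (Cpn1, 95% interval -0.62 to 0.23) and 0.72 (Rab17, -0.69 to 2.14).

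Against Pcgf2/4-/-, Pcgf1/2/4-/- differed in 1 of the 7 genes, where 30% of all genes differed. Tspan8 was higher by 1.73 ± 0.59 on the log2 scale (edgeR adjusted p = 0.0409), a call lost in each of the fits without a library of Pcgf1-/-, Pcgf2/4-/- or Pcgf1/2/4-/-. With only the groups compared, the filter left 3 of the 7 genes untested here and the Tspan8 call was lost too. Atf3 did not pass the test there, at -0.13 (95% interval -0.73 to 0.48), and Bin2 was at 0.00 (-0.24 to 0.23). Thus Atf3 in the triple knockout lay near its low level in Pcgf2/4-/- and far below its level in Pcgf1-/-.

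Pcgf3/5/6-/- differed from Pcgf3/5-/- in 3 of the 7 genes, against 51.8% of all genes. Arhgef5 was higher by 2.09 ± 0.38 (edgeR adjusted p = 0.000364), Cpn1 by 0.74 ± 0.19 (edgeR adjusted p = 0.00426) and Bin2 by 0.53 ± 0.11 (edgeR adjusted p = 0.000921) on the log2 scale. Cpn1 lost its call without Pcgf3/5/6-/- replicate 1, and Arhgef5 lost its call with loess offsets. Rab17 did not pass the test, at 0.04 (95% interval -0.69 to 0.78), and turned to -1.21 with loess offsets, past the threshold, so its direction depends on the scaling.

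Against Pcgf6-/-, Pcgf3/5/6-/- differed in 6 of the 7 genes, where 46% of all genes differed, and in both directions. Rab17 was higher by 1.48 ± 0.44 (edgeR adjusted p = 0.0138), Atf3 by 1.12 ± 0.21 (edgeR adjusted p = 0.00054), Arhgef5 by 1.06 ± 0.33 (edgeR adjusted p = 0.0166) and Bin2 by 0.40 ± 0.11 (edgeR adjusted p = 0.00783). Tspan8 was lower at -1.67 ± 0.34 (edgeR adjusted p = 0.00151) and Cpn1 at -0.94 ± 0.17 (edgeR adjusted p = 0.000538). Bicd1 did not pass at 0.49 (95% interval 0.04 to 0.94, edgeR adjusted p = 0.097). Without Pcgf3/5/6-/- replicate 1 the calls of Arhgef5, Bin2 and Rab17 were lost and 3 genes remained. Arhgef5 and Rab17 lost theirs without Pcgf3/5/6-/- replicate 2, Bin2 and Rab17 without Pcgf6-/- replicate 1, and Arhgef5 without Pcgf6-/- replicate 2. The calls of Atf3, Cpn1 and Tspan8 held in every such fit.

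**Figure D2:**
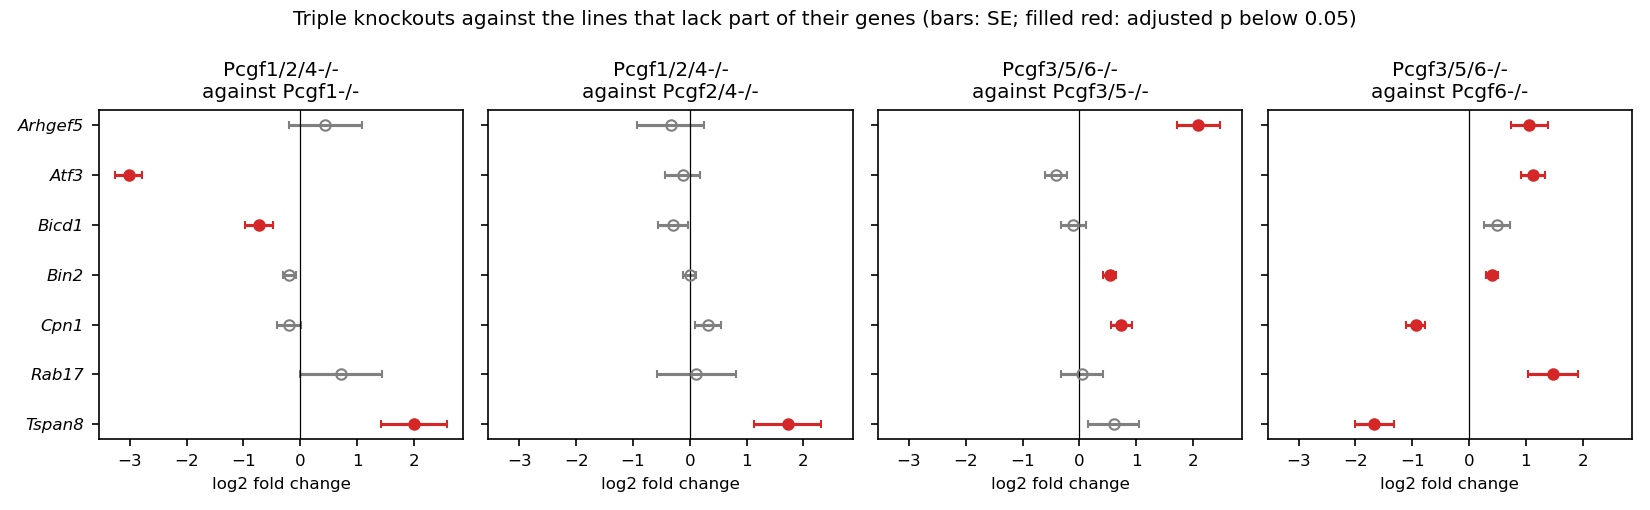
Log2 fold change (x axis) of each gene (y axis) in the 4 comparisons of a triple knockout with a line whose deleted genes it includes, from the edgeR fit; bars are SE and filled red points have an adjusted p under 0.05. Atf3 falls by 3.02 from Pcgf1-/- to Pcgf1/2/4-/-, and Cpn1 and Tspan8 lie on the other side of 0 from the remaining genes in the comparison with Pcgf6-/-.

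The knockouts did not order the genes alike. Over the 6 knockout group means of log2 CPM, the Pearson correlation was 0.85 between Cpn1 and Tspan8 and 0.80 between Atf3 and Bicd1, and it was -0.86 between Bicd1 and Tspan8. These are descriptions over 6 points that share libraries. The 2 genes of the whole table with the profile most like each gene over the 7 group means were found by the same correlation. They included Slc1a1 (0.96) for Tspan8, and were Ak8 (0.97) and Tsc22d3 (0.95) for Atf3, and Tyr (0.97) and Fam174a (0.96) for Arhgef5. For Rab17 they were March8 (0.97) and Tepp (0.93), for Cpn1 Pex2 (0.96) and Kctd12 (0.96), for Bicd1 Ppara (0.96) and Usp38 (0.93), and for Bin2 Azi2 (0.92) and Pex14 (0.91).

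Polycomb peaks at the starts divided the list. A gene was counted as having a peak where a deposited peak lay within 2.5 kb of an annotated transcript start, and shares of all genes refer to the 14341 tested genes with an annotated start. Each antibody has at most 1 list per line, except 2 for RING1B and H2AK119ub1 in Pcgf1/2/4-/-, so there is no test. The triple knockouts have lists of RING1B, SUZ12, H3K27me3 and H2AK119ub1 only, and USF1 and WDR5 have wild-type lists only. In wild-type, 2 of the 7 genes, Arhgef5 and Atf3, had a RING1B peak, where 16.5% of all genes had one. The same 2 had a SUZ12 peak (17.8% of all genes). H3K27me3 peaks stood at Arhgef5, Atf3 and Cpn1 (13.1%), of which only that of Atf3 had a -log10 q of at least 10. The nearest such peak of Atf3 was 1.67 kb from a start, so with the 1 kb window only Arhgef5 and Cpn1 were counted. A PCGF2 peak stood at Atf3 alone (14.5%). None of the 7 had a wild-type peak of H2AK119ub1 (3.69%), PCGF1 (2.5%), PCGF3 (1.27%), PCGF6 (7.47%) or WDR5 (13.0%). The PCGF6 list of the line labelled shCtr, however, had peaks at Atf3, Bicd1, Bin2 and Cpn1, where 26.0% of all genes had one. For Bicd1, Bin2, Cpn1, Rab17 and Tspan8 the nearest wild-type RING1B peak was 28.6 kb (Rab17) to 964 kb (Bicd1) away.

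Atf3 carried the broadest Polycomb peak. The wild-type RING1B peak, chr1:193006239-193010098, spanned its upstream start and the promoter sequence printed above, with the authors' -log10 q of 42.7. A RING1B peak was called at Atf3 in 6 of 8 lists, where 7.59% to 19.8% of all genes had one. It was called in neither Pcgf1/2/4-/- list, where 8.25% and 7.5% of all genes had a peak. The lists with a call include Pcgf1-/- and Pcgf3/5-/-, where Atf3 RNA was highest, and wild-type, where it was lowest. They also include Pcgf2/4-/-, whose Atf3 libraries overlap those of Pcgf1/2/4-/-, the lowest knockout. SUZ12 was called there in 7 of 7 lists and H3K27me3 in 6 of 7, all but Pcgf1/2/4-/-. H2AK119ub1 was called at Atf3 in Pcgf1-/- (10.1% of all genes), Pcgf2/4-/- (45.6%), Pcgf3/5-/- (79.9%) and Pcgf3/5/6-/- (39.1%). PCGF1 peaks appeared in 4 lists outside wild-type, and PCGF2 was called in wild-type and in 4 further lists.

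Arhgef5 kept a smaller set. Its wild-type RING1B peaks included chr6:43214886-43215565, which covers most of the printed promoter, with a -log10 q of 13.6. RING1B was called in wild-type, Pcgf1-/-, Pcgf3/5-/- and Pcgf6-/-, and not in Pcgf2/4-/-, Pcgf1/2/4-/- or Pcgf3/5/6-/-. SUZ12 was called in every line except Pcgf1/2/4-/-. Cpn1 had an H3K27me3 peak in wild-type with a -log10 q of 6.94, near the bottom of its list. It also had one in Pcgf1-/-, Pcgf2/4-/- and Pcgf3/5-/-, but no RING1B peak in any list. Of all genes, 19.8%, 37.6% and 21.7% had an H3K27me3 peak in those knockouts, and 13.1% in wild-type.

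Bicd1, Bin2 and Rab17 had no wild-type peak of RING1B, SUZ12, H3K27me3 or H2AK119ub1, and each had a peak of at least 1 of these in a knockout list. Bicd1 had RING1B peaks in Pcgf2/4-/- and in 1 of the 2 Pcgf1/2/4-/- lists, and Bin2 in Pcgf1-/- and Pcgf2/4-/-. Of all genes, 17.1% had a RING1B peak in Pcgf1-/-, 19.8% in Pcgf2/4-/- and 7.5% in that Pcgf1/2/4-/- list. Rab17 had H3K27me3 peaks in Pcgf1-/-, Pcgf2/4-/- and Pcgf3/5-/-, where 19.8%, 37.6% and 21.7% of all genes had one. The lists differ in length, with 112110 H3K27me3 peaks in Pcgf2/4-/- and 8063 in wild-type, so these peaks show no gain. H2AK119ub1 peaks appeared at Arhgef5, Atf3, Bin2, Cpn1 and Rab17 in both Pcgf2/4-/- and Pcgf3/5-/-. In those lists 45.6% and 79.9% of all genes had a peak, and in Pcgf3/5-/- the 5 of 7 lies below that share. Tspan8 had no peak of any antibody in any of the 80 lists, although its RNA was above wild-type in all 12 knockout libraries.

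**Figure D3:**
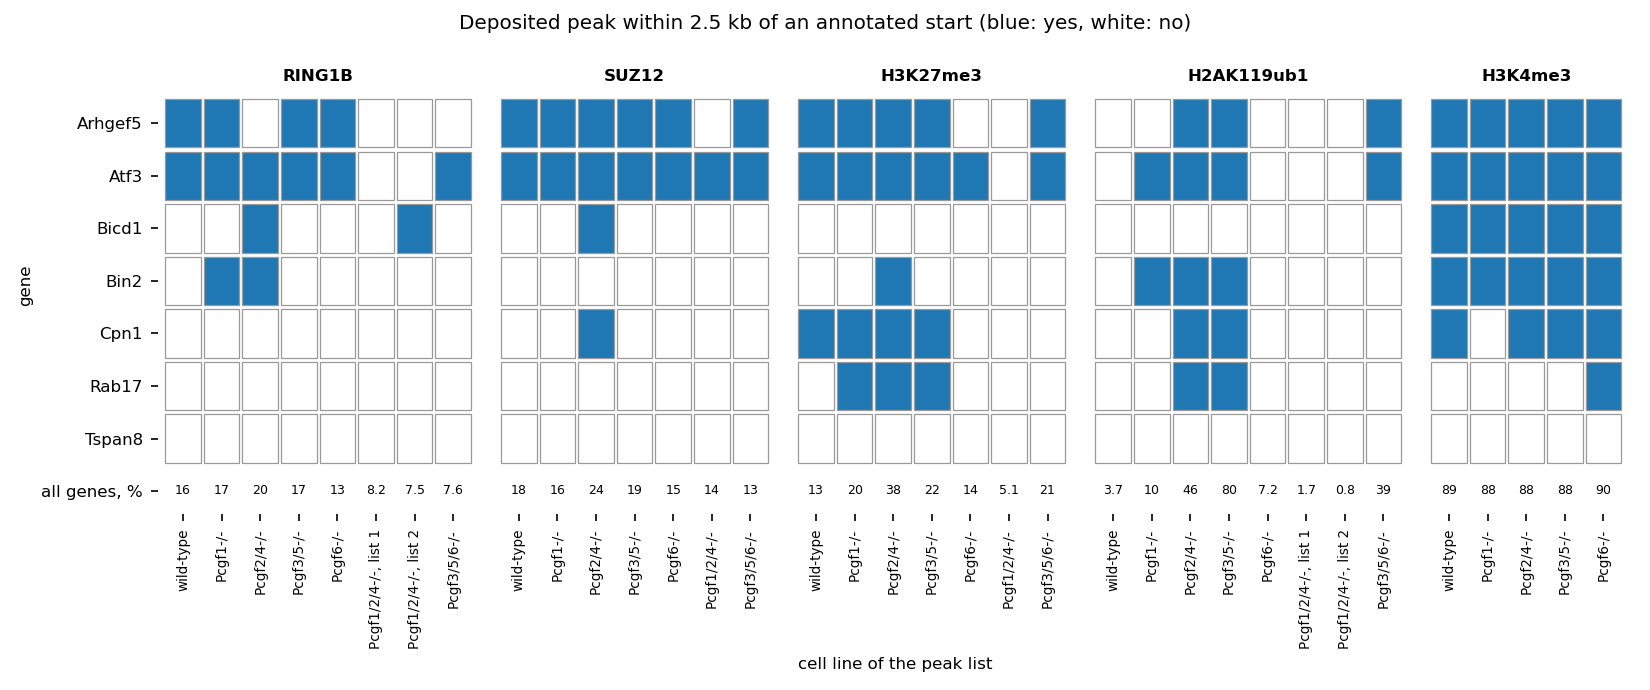
Presence (blue) or absence (white) of a deposited peak within 2.5 kb of a start for each gene (rows) in each list (columns, grouped by antibody and named by cell line), with the percentage of all 14341 genes that have a peak below. RING1B is called at Atf3 in 6 of 8 lists and at Arhgef5 in 4 of 8, SUZ12 in 7 of 7 and 6 of 7, and the row of Tspan8 is empty.

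Peaks of the marks of active starts and bodies are described beside the levels, without a test. H3K4me3 was called in wild-type at 5 of the 7 genes, all but Rab17 and Tspan8, where 88.6% of all genes had a peak. In the knockout lists of H3K4me3 that share was 87.6% to 89.8%. Rab17 had an H3K4me3 peak only in Pcgf6-/-, with a -log10 q of 18.5, although its RNA was higher in Pcgf3/5-/-. For Cpn1 the H3K4me3 peak had a -log10 q of 56.3 in Pcgf6-/-, at percentile 60.6 of that list, and 10.2 in wild-type, at percentile 12.8 of that list. No H3K4me3 peak was called at Cpn1 in Pcgf1-/-, where its RNA was above wild-type. The lists differ in length and depth, so these ranks show no change. H3K36me3, a mark of transcribed gene bodies, was called over Bin2 in wild-type, Pcgf1-/-, Pcgf3/5-/- and Pcgf6-/- but not Pcgf2/4-/-, and over Cpn1 in Pcgf6-/-, its line of highest RNA. Of all genes, 56.2% had such a peak in wild-type and 56.1% to 61.2% in the knockout lists. USF1, an E-box factor, had a wild-type peak at Rab17 (chr1:92865888-92866230), where 23.0% of all genes had a USF1 peak. Its 343 bases held no CACGTG, which 75.8% of wild-type USF1 peaks held in a window of that length.

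The genes raised in all 6 knockouts were counted by wild-type level and by Polycomb peak, as a description. The wild-type level is also the baseline of the rise, and genes at or near 0 in wild-type passed the filter on low counts through the groups where they are higher, so the order of the quintiles is partly set in advance. By quintile of wild-type CPM from low to high, 0.814%, 0.428%, 0.230%, 0.0659% and 0% of genes were raised in all 6, or 27, 13, 7, 2 and 0 genes. Arhgef5, Atf3, Rab17 and Tspan8 fell in the lowest quintile, Bicd1 and Cpn1 in the next and Bin2 in the middle. With a wild-type RING1B peak, 18 of 2373 genes (0.759%) were raised in all 6, against 30 of 11968 (0.251%) without. For SUZ12 the shares were 0.942% and 0.204%. Within the lowest quintile the RING1B shares lay closer, at 1.08% (11 of 1017) with a peak and 0.803% (16 of 1992) without. In the next quintile they were 0.779% (6 of 770) and 0.352% (7 of 1987). The differences in these shares were not tested, and the listed genes are among those counted. Whether Polycomb loss or a low starting level accounts for the rise of any of the 7 genes was not tested.

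**Figure D4:**
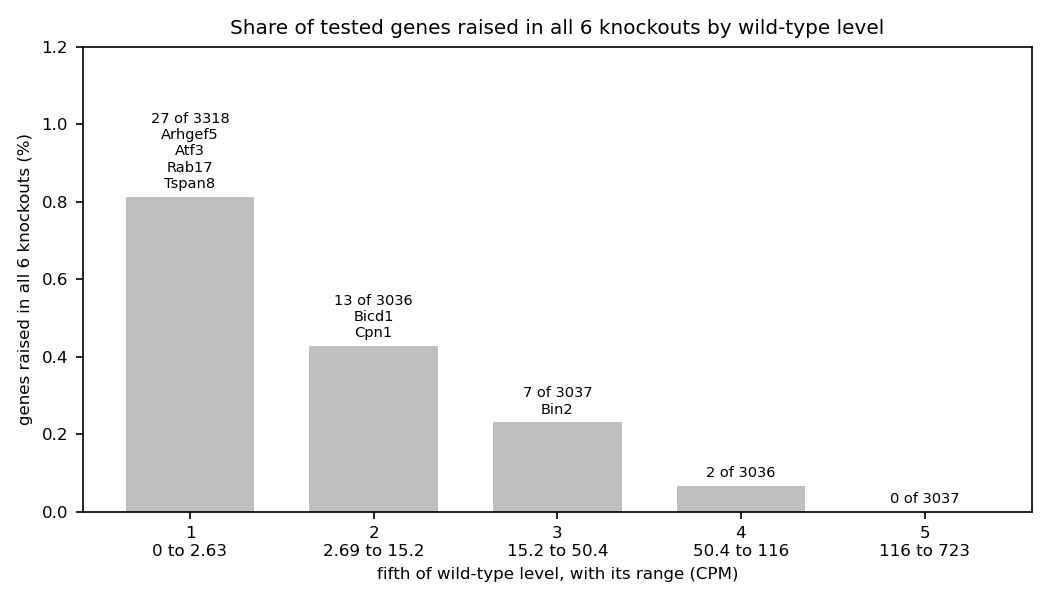
Percentage of tested genes raised in all 6 knockouts (y axis) by quintile of wild-type level with its range in CPM (x axis), with the number of genes and the names of the listed genes above each bar. The share is 0.814% in the lowest quintile and 0% in the highest, an order partly set in advance because the wild-type level is the baseline of the rise.

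The pathways around these genes did not move in 1 direction. Of 25 genes of the integrated stress response and ATF4 targets, a pathway that induces Atf3, 17 were raised in Pcgf1-/- and none was lowered. The median log2 fold change of the 25 there was 0.97, and of all genes 13.9% were raised and 18.4% lowered. In Pcgf3/5-/- 10 were raised, where 11.1% of all genes were. In Pcgf1/2/4-/-, where Atf3 was lowest among the knockouts, 8 were raised and 1 lowered, and in Pcgf2/4-/- 1 was raised and none lowered. In Pcgf6-/- 2 were raised and 11 lowered, and in Pcgf3/5/6-/- 3 were raised and 10 lowered. Of all genes, 14.4% were raised and 22.6% lowered in Pcgf1/2/4-/-, and 8.1% and 13.5% in Pcgf2/4-/-. In Pcgf6-/- these shares were 27.8% and 18.6%, and in Pcgf3/5/6-/- 28% and 25.3%. Atf3 was above wild-type in all 6 lines, and whether this pathway accounts for its rise was not tested. Gdf15, a secreted stress cytokine, had log2 fold changes of 1.25 in Pcgf1-/- and -2.81 in Pcgf6-/-. Atf5 followed the same signs, at 1.68 and -1.38. Ddit4, a stress-induced inhibitor of mTORC1, was raised in 5 of the 6 lines, with log2 fold changes from 0.81 (Pcgf2/4-/-) to 3.51 (Pcgf3/5/6-/-).

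Of 21 epithelial genes, 10 were raised in Pcgf1-/-, 4 in Pcgf2/4-/-, 6 in Pcgf3/5-/-, 11 in Pcgf6-/-, 13 in Pcgf1/2/4-/- and 14 in Pcgf3/5/6-/-. In the same order of lines 5, 3, 4, 1, 1 and 1 were lowered. The shares of all genes raised, in the same order of lines, were 13.9%, 8.1%, 11.1%, 27.8%, 14.4% and 28%. Lowered genes made up 18.4% of all genes in Pcgf1-/-, 13.5% in Pcgf2/4-/-, 10.4% in Pcgf3/5-/-, 18.6% in Pcgf6-/-, 22.6% in Pcgf1/2/4-/- and 25.3% in Pcgf3/5/6-/-. Krt19, a simple epithelial keratin, rose by 6.12 on the log2 scale in Pcgf3/5/6-/- and by 3.06 in Pcgf6-/-, and was raised in 5 lines and lowered in 1. Ovol1, an epithelial transcription factor, was raised in 2 lines and lowered in 3. Of 32 tested relatives of the 7 genes in their own families, 6, 1, 6, 13, 10 and 16 were raised in the same order of lines and 6, 7, 3, 5, 8 and 5 were lowered. Tspan5, a tetraspanin, was raised in 5 of the 6 lines, whereas Tspan7 was raised in 3 and lowered in 3. Gsn, which encodes the actin-severing protein gelsolin, was raised in 5 lines, with a log2 fold change of 3.68 in Pcgf3/5/6-/-. Among the 18 tested podosome and actin regulators to which it belongs, 3, 0, 3, 4, 6 and 7 were raised in the same order of lines. In that order 4, 3, 0, 3, 1 and 0 of them were lowered. Of 12 tested immediate early genes 4, 2, 1, 5, 4 and 7 were raised and 2, 4, 4, 3, 3 and 1 lowered, again in that order. The shares of all genes given above apply to these lists too. Fos was raised in 5 lines, and Myc was lowered in 5.

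Markers of other cell types moved with some lines. The summed level of 11 primitive endoderm markers was 13.9 to 16.4 CPM in wild-type, where 5 of the 11 had a count and Gata4, Gata6, Sox17, Foxa2, Dab2 and Ttr were at 0. It was 84.7 to 92.5 CPM in Pcgf6-/-, 66.7 to 89.9 in Pcgf3/5/6-/-, and 8.38 to 39.8 in the other lines. The 10 trophoblast markers summed to 143 to 150 CPM in wild-type and 789 to 792 in Pcgf3/5/6-/-. The 5 two-cell-like markers summed to 99.9 to 102 CPM in wild-type, 425 to 466 in Pcgf6-/- and 271 to 278 in Pcgf3/5/6-/-, and 3.66 to 51.5 in the other lines. The highest mean levels of Arhgef5, Bin2, Cpn1, Rab17 and Tspan8 were in Pcgf6-/- or Pcgf3/5/6-/-, and those of Atf3 and Bicd1 in Pcgf1-/-. For Rab17 the libraries of Pcgf3/5/6-/- overlapped those of Pcgf3/5-/-. The part of such cells in these levels was not tested.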

How the data were processed

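RNA-seq counts per gene were deposited by the authors as whole numbers for 14 libraries, beside their own tables of log2 fold changes and adjusted p-values. Per the submitters' processing notes, the tools named were bcl2fastq 2, TopHat2 2.1.1, Bowtie 1.2.2, Picard 1.62, HTSeq 0.7.2, DESeq2 3.7 and MACS2 2.1.1, with build mm9. The deposited peak lists give a fold enrichment and a -log10 q for each peak, as the authors' peak caller wrote them. A spike-in was added for histone marks per the labels' protocols, but peak presence does not carry it. Peaks were compared by presence alone.

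Counts were fitted with edgeR 4.0.16 (R 4.3.3; filterByExpr, TMM, quasi-likelihood, all 14 libraries, 7 groups), two-sided, at an adjusted p of 0.05 over 15464 genes. SE is the log2 fold change over the root of its F value. The 95% intervals from the fit are 1.96 SE on each side, a normal approximation that is narrower than the quasi-likelihood test. CPM values use TMM library sizes; correlations use log2 CPM with a prior count of 2. For genes at 0 in wild-type, folds use a floor of 3 counts over the wild-type pair, and fitted log2 fold changes depend on the prior and are not given. Peaks had to lie within 2.5 kb of a GENCODE M1 start. RNA counts came without molecular identifiers. Fits were tested on simulated counts.

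Alternatives were RLE factors, loess offsets, no filter, DESeq2 1.42.0, only the groups compared, the replicate number as a block, each library left out, and, for peaks, windows of 1 kb and 5 kb, a -log10 q of at least 10, and the outermost start only. Counting the wild-type pair as 1 library was chosen after seeing the data. The genes and lists were chosen with earlier results of these data known. Named genes are the 7, the 2 most similar profiles for each, and from each list at most 3 genes called in the most knockouts; Sfmbt2, Pramef8 and Elovl2 were named after their values were seen. Some genes that these rules select are not reported here. Lists without a result above are given in the closing section.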

Additional observations from a re-analysis of the deposited data

Results flagged for a closer look

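RNA levels differed between lines that share deleted genes, by the edgeR test of the difference itself. From Pcgf1-/- to Pcgf1/2/4-/- the log2 fold change was -3.02 for Atf3, -0.72 for Bicd1 and 2.00 for Tspan8. From Pcgf2/4-/- to Pcgf1/2/4-/- it was 1.73 for Tspan8. From Pcgf3/5-/- to Pcgf3/5/6-/- it was 2.09 for Arhgef5, 0.53 for Bin2 and 0.74 for Cpn1. From Pcgf6-/- to Pcgf3/5/6-/- it was 1.06 for Arhgef5, 1.12 for Atf3, 0.40 for Bin2, -0.94 for Cpn1, 1.48 for Rab17 and -1.67 for Tspan8. Some of these calls were lost without 1 library or in another setting, as given with each comparison. The causes were not tested.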

How the results depend on the processing

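Each gene's fold change over wild-type kept its sign in every setting that gave a value. With only the groups compared, 4 of the 7 genes were raised in Pcgf1-/- and 3 in Pcgf2/4-/-, because the filter then dropped Arhgef5, Rab17 and Tspan8, which are at or near 0 in wild-type, and Cpn1 did not pass in Pcgf2/4-/- (edgeR, 0.99 on the log2 scale). In Pcgf1/2/4-/- 5 of the 7 were raised in that setting. The number of genes raised in all 6 knockouts was 49, and became 74 with loess offsets, 20 with only the groups compared and 30 with a log2 fold change of at least 1. Leaving out each library in turn gave 14 (without wild-type replicate 2) to 68. In those fits 5 to 7 of the 7 genes were raised in Pcgf1-/-, 6 to 7 in Pcgf2/4-/- and in Pcgf1/2/4-/-, and 7 in the others. The gene that differed from Pcgf2/4-/- to Pcgf1/2/4-/- was lost (0 genes) with loess offsets, with only the groups compared and with the replicate block, and the fits without 1 library gave 0 to 1. Those fits gave 1 to 3 genes for Pcgf1/2/4-/- against Pcgf1-/-, 2 to 4 for Pcgf3/5/6-/- against Pcgf3/5-/- and 3 to 6 against Pcgf6-/-. Rab17 reversed to -1.21 for Pcgf3/5/6-/- against Pcgf3/5-/- with loess offsets, and the cause was not tested. Replicate numbers did not pair the libraries: r over 0.1 in 3 of 21 pairs of groups, from -0.46 to 0.38. The replicate block changed no other call on the 7 genes. No count of genes with a wild-type RING1B or SUZ12 peak moved by over 1.5 times in any setting. Depth limits Rab17, Tspan8 and Arhgef5, whose knockout libraries hold as few as 2 reads.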

Other observations

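Other gene lists gave these counts. Of 19 p53 targets, 6 were raised and 2 lowered in Pcgf1-/-, 5 and 1 in Pcgf2/4-/-, and 0 and 6 in Pcgf3/5-/-. In Pcgf6-/- 6 were raised and 2 lowered, in Pcgf1/2/4-/- 10 and 4, and in Pcgf3/5/6-/- 8 and 3. Of all genes, in the same order of lines, 13.9%, 8.1%, 11.1%, 27.8%, 14.4% and 28% were raised and 18.4%, 13.5%, 10.4%, 18.6%, 22.6% and 25.3% lowered. Of 12 ATF and related bZIP factors, at most 3 were raised and at most 4 lowered in any line. The 7 fibroblast markers summed to 11.4 to 15.4 CPM in wild-type and 1.07 to 41.1 CPM over the knockout libraries. The 6 blood markers summed to 56.8 to 57.4 CPM in wild-type and 51.0 to 182 CPM over the knockout libraries. The part of blood cells in the level of Bin2 was not tested.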
